A study of Mus musculus with 8 samples.

Results

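Genes for the protein parts of the spliceosome were followed across brains of mice with and without Cav1, the gene for caveolin 1, the main coat protein of caveolae. The genes were chosen by name: all symbols in the deposited count table that begin with Snrp, with Prpf and a digit, with Sf3a or Sf3b and a digit, or with Srsf and a digit. This rule took 46 of the 34299 genes in the table and left out 1 row named as a pseudogene, Srsf3-ps. The rule uses no measured value, but the set was taken up with results of both comparisons known, so that its counts of changed genes are a description. The 46 genes hold 8 of the Sm core, 5 of the U1 particle, 11 of the U2 particle, 5 of the U4/U6 and U5 tri-snRNP, 5 other Prpf factors and 11 SR proteins. The last member, Snrpert, is annotated as a processed pseudogene and has Snrpe as its parent, so it belongs to no particle. "Core" is wider here than the particles alone, since SR proteins and some Prpf factors regulate splicing or join the spliceosome only for a time.

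RNA-seq of polyadenylated RNA from whole brain covered 3 groups. Wild-type (WT) fetuses at gestation day 15 gave 3 libraries, Cav1 knockout (KO) fetuses of the same age gave 3, and KO mice at week 70 gave 2. The labels name the genotype as a plain knockout, with no promoter or Cre, and give no strain, litter, batch or date. WT brain at week 70 is not analysed here, so the effect of age is seen only within KO.

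Total counts were 14110031 to 20833397 per library, and all KO day 15 libraries were shallower than all WT libraries, so depth, an unrecorded batch and genotype cannot be told apart. Cav1 had 218 to 367 counts in WT and at most 5 in any KO library, which matches the genotype labels. The neuronal markers Tubb3, Stmn2, Snap25, Syt1, Rbfox3 and Elavl4 were above 3 counts in every group. By Xist and Y-linked genes, all fetal libraries and week 70 replicate 1 looked female and week 70 replicate 2 male. WT replicate 1 stood apart in connective tissue markers: the 5 of them summed to between 278 and 4382 normalised CPM (CPM, counts scaled to library size with TMM factors over all 8 libraries) across the WT libraries.

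Introns are removed from pre-mRNA by the spliceosome, which is built anew on each intron from small nuclear RNAs bound to proteins. A ring of Sm proteins sits on most of these RNAs; U1 finds the 5′ splice site, U2 with its SF3a and SF3b complexes finds the branch point, and the tri-snRNP brings in U5, whose protein Prpf8 holds the catalytic centre. SR proteins bind exons and help to choose splice sites, and in the brain SmN, the product of the imprinted gene Snrpn, takes the place of SmB in the ring.

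Because fold changes varied with base composition, 5 members, picked by their values to show its range, are given by the middle 120 bases of their coding sequence, 5′ to 3′, with G and C in capitals (longest complete coding transcript in GENCODE M21, GRCm38). The first set fell in KO at day 15: Prpf8 (chromosome 11) and Sf3b4 (chromosome 3). The second set rose: Sf3b6 (chromosome 12), Prpf39 (chromosome 12) and Srsf7 (chromosome 17).
Prpf8: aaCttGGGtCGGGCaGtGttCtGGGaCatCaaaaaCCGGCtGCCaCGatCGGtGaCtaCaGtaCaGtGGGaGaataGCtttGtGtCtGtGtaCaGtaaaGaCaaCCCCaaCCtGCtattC
Sf3b4: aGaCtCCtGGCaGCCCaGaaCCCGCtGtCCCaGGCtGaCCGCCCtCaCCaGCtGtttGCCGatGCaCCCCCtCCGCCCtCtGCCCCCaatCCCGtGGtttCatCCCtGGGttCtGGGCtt
Sf3b6: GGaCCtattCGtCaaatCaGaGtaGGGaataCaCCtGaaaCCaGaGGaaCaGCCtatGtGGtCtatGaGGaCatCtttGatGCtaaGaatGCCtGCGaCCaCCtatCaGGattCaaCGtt
Prpf39: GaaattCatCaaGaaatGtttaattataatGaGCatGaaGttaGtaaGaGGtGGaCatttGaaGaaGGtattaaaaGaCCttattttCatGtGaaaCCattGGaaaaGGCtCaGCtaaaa
Srsf7: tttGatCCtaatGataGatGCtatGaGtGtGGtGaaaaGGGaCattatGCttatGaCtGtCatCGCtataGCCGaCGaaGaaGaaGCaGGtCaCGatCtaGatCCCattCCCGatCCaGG
G and C made up 50% of the window in Prpf8 (coding bases 3442 to 3561) and 65.8% in Sf3b4 (577 to 696). They made up 45.8% in Sf3b6 (127 to 246), 30.8% in Prpf39 (937 to 1056) and 45.0% in Srsf7 (298 to 417). Windows of other members went the other way: the windows of Snrpc (62.5%), Snrpn (63.3%), Srsf12 and Sf3b5 (60% each), which rose, were richer in G and C than that of Prpf19 (46.7%), which fell.

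At day 15 the summed normalised CPM of the 46 genes was about the same in both genotypes, while the make-up of the sum was not. It was 6126, 6203 and 5991 normalised CPM in WT and 6054, 6107 and 6238 in KO, and the groups overlapped. This likeness depended on the TMM factors, which were 1.016 to 1.027 in WT and 1.17 to 1.18 in KO. As a percent of all counts, without these factors, the 46 genes held 0.6292, 0.6301 and 0.6141 in WT. In KO they held 0.7085, 0.7209 and 0.7335, above all WT libraries. As fitted, most genes of the Sm core and most SR proteins rose, while Prpf8 of U5 and 5 of the 9 SF3a and SF3b genes fell. With an offset for transcript length and GC content, 2 of 8 Sm genes and 3 of 11 SR proteins were called higher, while Prpf8 and the same 5 SF3 genes were still called lower. At week 70 the sum was lower, at 3839 and 4042 CPM, and every SR protein but Srsf9 fell. Fewer cells of a type and less RNA per cell cannot be told apart in whole brain.

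The counts of called genes have a high background in these libraries. Between KO and WT at day 15, edgeR's quasi-likelihood test with an adjusted p under 0.05 over 19147 genes called 41 of the 46 members, 25 higher and 16 lower in KO, where 62.6% of all tested genes were called (30.1% higher and 32.5% lower). CPM did not overlap between the genotypes for 41 members, against 68.4% of all tested genes. The median log2 fold change of the members was 0.24, beside 0.03 for all tested genes. Between week 70 and day 15 within KO, 42 members were called of the 46, 14 higher and 28 lower, where 82.0% of 20000 genes were called (37.6% higher and 44.4% lower). Groups did not overlap for 42 members, against 87.9% of all tested genes, and the median was -0.61 beside -0.19 for all. Both comparisons use the KO day 15 libraries. Upper-quartile scaling left Srsf2, Srsf9, Prpf40b and Prpf31 without a call at day 15 and called Snrpa1 and Prpf38b higher; with age it left Sf3a1 without one and called Srsf9, Snrpe, Snrpf and Sf3b3 lower.

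**Figure D1:**
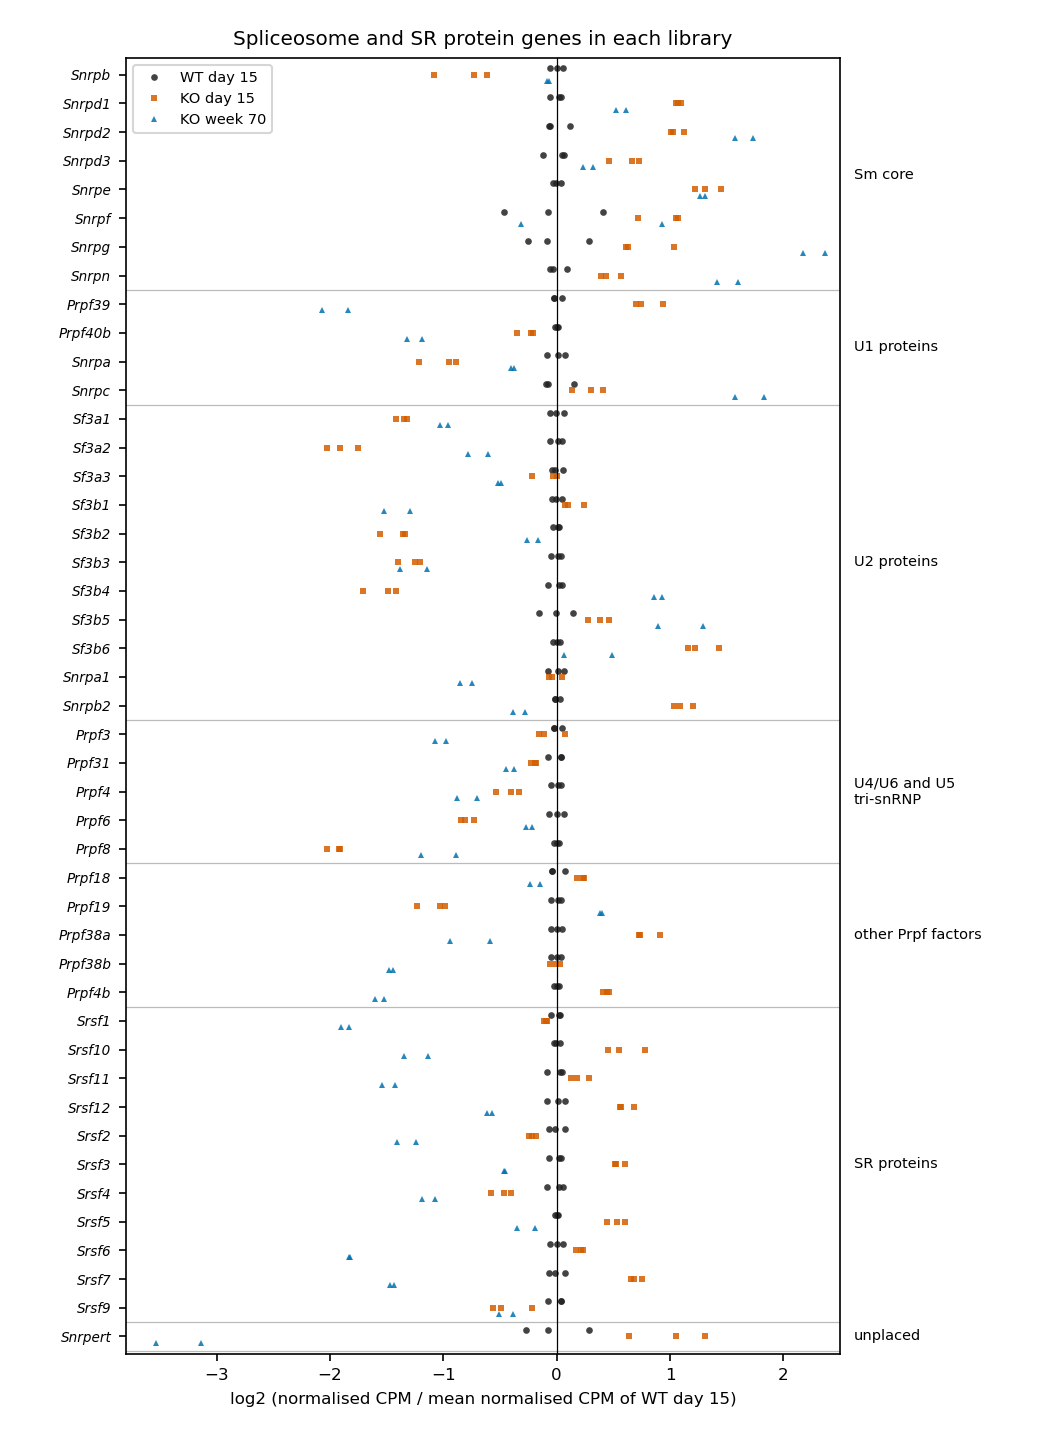
Level of 45 of the 46 genes in each library, as the log2 ratio of its normalised CPM to the mean of the 3 WT libraries (horizontal axis), by particle or family (rows). Points are libraries: black circles WT day 15, orange squares KO day 15, blue triangles KO week 70; the week 70 triangles of the SR proteins lie left of both fetal groups, except for Srsf9, and the KO day 15 squares of Prpf8, Sf3a2 and Sf3b4 lie far left of WT.

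The Sm core, the ring on which the snRNPs are built, had 7 genes higher and 1 lower in KO at day 15, and its median log2 fold change was 0.90. Snrpe, for the ring protein SmE, showed the largest rise. It was at 9.86, 10.03 and 10.4 CPM in WT and 27.6, 25.1 and 23.6 in KO, a difference of 1.37 on the log2 scale (edgeR SE 0.0967, adjusted p 7.03e-07). All KO libraries were above all WT libraries. The other ring genes higher in KO were Snrpd1 (1.12), Snrpd2 (1.10), Snrpf (1.00), Snrpg (0.81), Snrpd3 (0.66) and Snrpn (0.51). Snrpb, which encodes SmB, was the 1 gene that fell, by 0.76 on the log2 scale.

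Members of the U1 particle went both ways. Prpf39, a U1 accessory protein, was at 98.6, 93.8 and 93.6 CPM in WT and 155, 160.0 and 182 in KO, a difference of 0.84 on the log2 scale (edgeR SE 0.0714, adjusted p 2.81e-06). Snrpa, whose protein binds U1 RNA, was at 75.2, 80.3 and 83.8 CPM in WT and 43.1, 41.2 and 34.3 in KO. The edgeR log2 fold change came to -0.97 (SE 0.0849, adjusted p 3.30e-06). The groups did not overlap for either gene. Snrpc (0.33) was called higher and Prpf40b (-0.22) lower. The groups overlapped for Snrpc, and its call was lost without WT replicate 1, WT replicate 2, KO replicate 1 or KO replicate 2.

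The U2 particle split most widely. Of the SF3 genes 5 fell: Sf3a2 (-1.85), Sf3b4 (-1.49), Sf3b2 (-1.37), Sf3a1 (-1.32) and Sf3b3 (-1.24) on the log2 scale. Sf3b6 (1.32), which lies at the branch point, Snrpb2 (1.15) and Sf3b5 (0.42) rose, and Sf3b1, the scaffold of SF3b, rose little (0.18). Sf3a2 was at 71.2, 76.7 and 74.6 CPM in WT and 22.1, 19.7 and 18.2 in KO, 3.61-fold lower in the fit (edgeR SE 0.0785 on the log2 scale, adjusted p 3.08e-08). Sf3b6 was at 46.4, 45.5 and 44.4 CPM in WT and 106, 101 and 123 in KO, 2.49-fold higher (edgeR SE 0.0775, adjusted p 2.01e-07). No KO library of either gene reached the WT range. Sf3a3 (-0.04) and Snrpa1 (0.02) were not called. Over the 9 SF3a and SF3b genes the median was -1.24, with 5 lower and 3 higher. The call on Sf3b1 was lost when WT replicate 1, WT replicate 3, KO replicate 2 or KO replicate 3 was left out.

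All 4 called genes of the tri-snRNP were lower in KO. Prpf8, the U5 protein around which the catalytic centre forms, showed the largest fall of all members. It was at 436, 431 and 422 CPM in WT and 113, 114 and 105 in KO, 3.77-fold lower in the fit (edgeR SE 0.0593 on the log2 scale, adjusted p 1.39e-08). The lowest WT library was thus far above the highest KO library. Prpf6, which bridges U5 and U4/U6, fell by 0.76, Prpf4 by 0.38 and Prpf31 by 0.16 on the log2 scale, and Prpf3 was at -0.02. Prpf31 lost its call when any 1 library but WT replicate 3 was left out. With the length and GC offset Prpf8 (-1.21) and Prpf6 (-0.47) were still called lower, while Prpf4 (-0.18) and Prpf31 (0.08) were not called. Summed over the 5 genes, the level was 638 ± 11.8 CPM for WT against 267 ± 9.22 for KO (SD, n = 3 each), and Prpf8 gave most of the WT sum.

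Of the other Prpf factors, Prpf19, the ubiquitin ligase that gives the Prp19 complex its name, was at 179, 186 and 190 CPM in WT and 90.5, 93.1 and 78.5 in KO. The edgeR log2 fold change came to -1.04 (SE 0.0709, adjusted p 5.51e-07). Prpf38a, which joins before activation, was at 41.5, 44.2 and 43.0 CPM in WT and 71.0, 71.5 and 80.7 in KO, a difference of 0.84 on the log2 scale (edgeR SE 0.0708, adjusted p 2.67e-06). Neither gene had overlapping groups. Prpf4b, a kinase (0.48), and Prpf18, a factor of the second step (0.26), were higher, and Prpf38b was at 0.03.

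SR proteins took the largest share of the members' reads, 2413 ± 63.2 CPM for WT against 2873 ± 74.6 for KO (SD, n = 3 each). Srsf7 showed the largest rise: 222, 246 and 231 CPM in WT and 375, 369 and 394 in KO, a difference of 0.74 on the log2 scale (edgeR SE 0.0656, adjusted p 3.68e-06). Srsf12 (0.64), Srsf10 (0.64), Srsf3 (0.59), Srsf5 (0.57), Srsf6 (0.24) and Srsf11 (0.24) were also higher. Srsf4 showed the largest fall, from 53.3, 48.3 and 52.1 to 37.1, 34.3 and 38.7 CPM, a difference of -0.44 on the log2 scale (edgeR SE 0.07, adjusted p 0.000288). Srsf9 (-0.38) and Srsf2 (-0.17) were lower too, and Srsf1 was at -0.06. Srsf2 was not called without WT replicate 1 or KO replicate 2, nor Srsf11 without WT replicate 3. Of these genes Srsf4 shares 43.0% of its exonic bases with Gm12992 on the opposite strand, and no source used here states that strand was counted; Gm12992 had at most 46 counts in a fetal library.

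The split followed base composition, in the members and in the genome at large. Of the 28 members with a longest transcript under 48% GC, 23 were higher and 1 lower in KO; of the 17 at 48% or more, 1 was higher and 15 lower. Among all tested protein-coding genes the same split gave 45.3% higher and 20.8% lower under 48% GC, and 12.7% higher and 53.7% lower at or above it. Spearman's rho between log2 fold change and GC was -0.69 over 45 members (Snrpert aside) and -0.48 over 19050 genes. Genes are not independent replicates, and these points share the 6 libraries, so no p is given. The exception above 48% was Snrpd2, at 52.3% GC and a log2 fold change of 1.10; below 48% it was Prpf4.

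**Figure D2:**
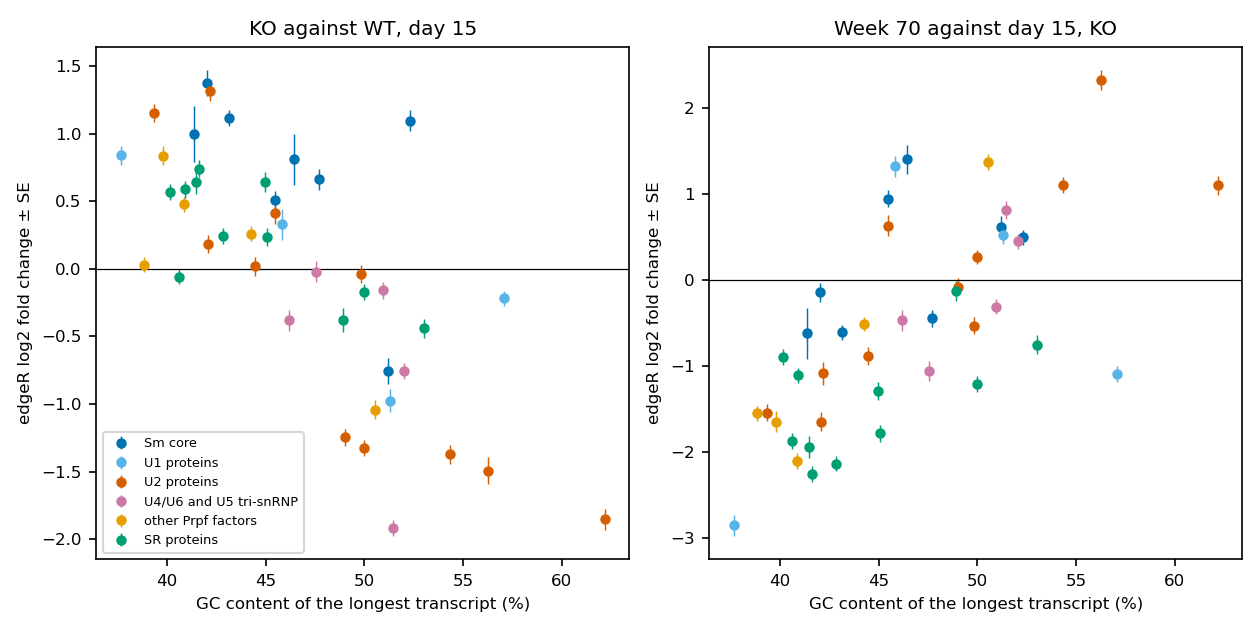
edgeR log2 fold change of 44 of the 45 protein-coding members (vertical axis, bars are 1 SE) against the GC content of its longest transcript in percent (horizontal axis), for KO against WT at day 15 (left) and week 70 against day 15 within KO (right), coloured by particle or family. Fold changes run from high to low with rising GC on the left (rho -0.69 over all 45) and from low to high on the right (rho 0.71 over all 45).

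A fit with an offset for transcript length and GC content, smoothed over all genes in each library, kept a part of the split. It called 28 members, 13 higher and 15 lower, where 51.1% of 19050 genes were called (26.0% higher and 25.1% lower), and the members' median was 0.05. Spearman's rho between these log2 fold changes and GC was still -0.42 over 45 members, beside -0.002 over 19050 genes. Of the members called in the first fit, 24 had the same call and 1, Prpf40b, the opposite one (0.52). The falls of Sf3a2 (-1.22), Sf3b4 (-1.23), Prpf8 (-1.21), Snrpa (-1.05), Sf3b2 (-0.93), Sf3b3 (-0.91), Sf3a1 (-0.88), Snrpb (-0.83) and Prpf19 (-0.47) were still called. So were the rises of Snrpd2 (0.99), Snrpd3 (0.68), Snrpc (0.58), Sf3b6 (0.57), Snrpb2 (0.29) and Prpf39 (0.31). The rises of Snrpe (0.23), Snrpd1 (0.14), Snrpg (0.20) and Snrpn (0.13), and that of Srsf7 (0.11), were not, and Snrpf turned to -0.11. The Sm median fell from 0.90 to 0.17, that of the SR proteins from 0.24 to 0.05, and that of SF3a with SF3b went from -1.24 to -0.88. Of the 11 SR proteins 3 were then higher and 3 lower. Srsf4 (-0.09), Srsf5 (0.05), Srsf6 (-0.065) and Srsf11 (0.05) lost their calls along with Srsf7, and Srsf1 was called lower (-0.31). Prpf38b (-0.51) and Snrpa1 (-0.455), without a call in the first fit, were called lower as well, although upper-quartile scaling called both higher. Prpf18 (0.08) and Sf3b1 (0.11) lost their calls. An offset smoothed on protein-coding genes alone, added after seeing the data, gave 30 calls, 14 higher and 16 lower, where 52.2% of all genes were called. It called Prpf31 higher (0.17), against the first fit.

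**Figure D3:**
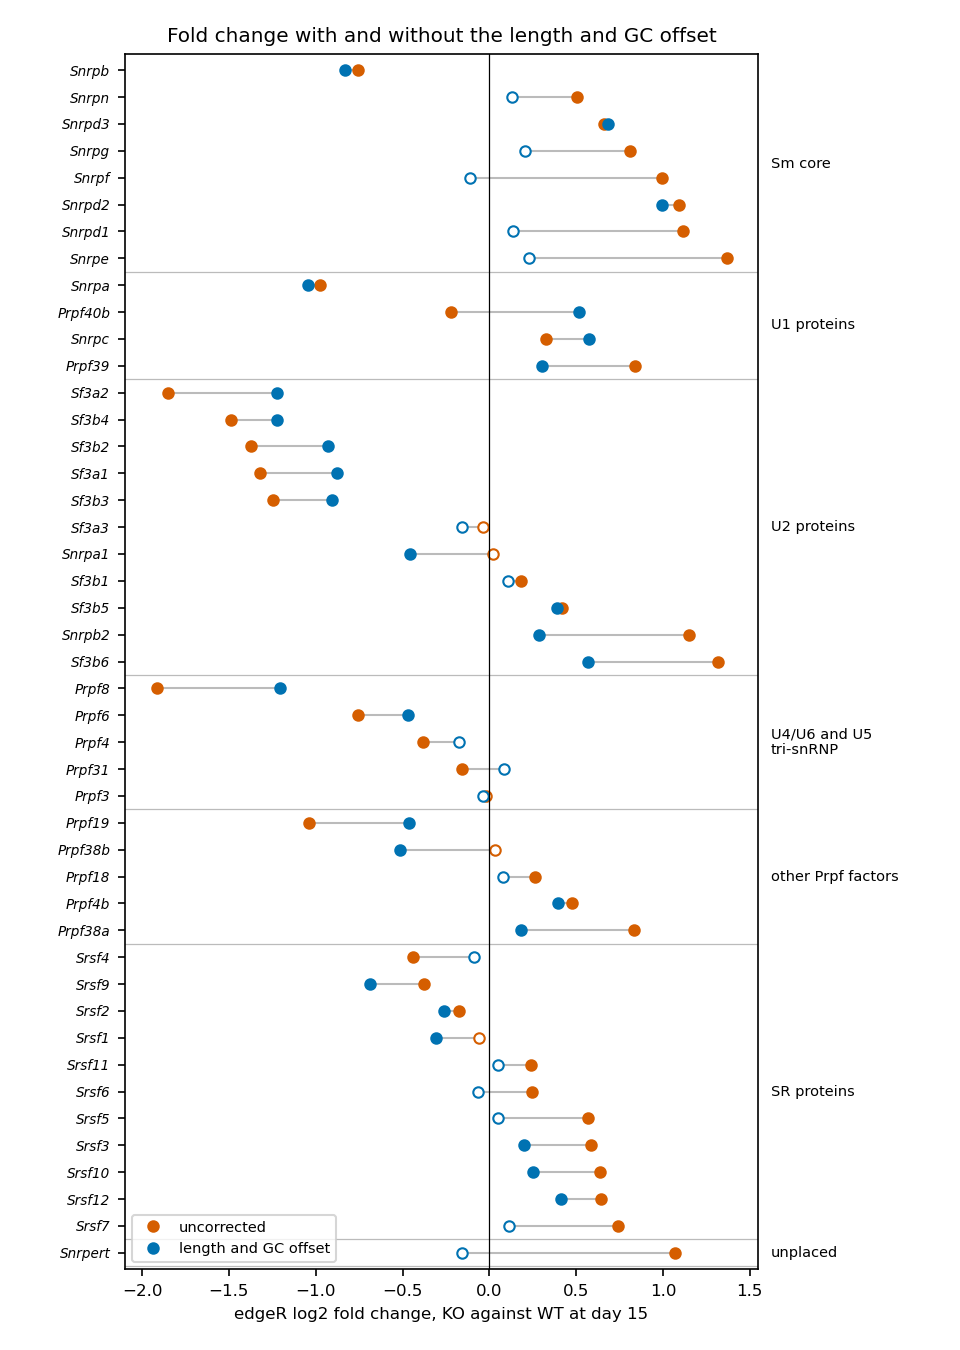
edgeR log2 fold change of 45 of the 46 members between KO and WT at day 15 (horizontal axis), without (orange) and with (blue) the length and GC offset; filled points passed an adjusted p of 0.05 and open points did not. The falls of Prpf8 and of the 5 SF3a and SF3b genes called lower shorten but stay filled, while 5 of the 8 Sm genes become open. Sf3a3 is open in both fits.

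Within the knockout, the members moved in another pattern with age. SR proteins were the most uniform: 0 of 11 were higher and 10 lower at week 70, with a median log2 fold change of -1.29 beside -0.19 for all tested genes. Their summed level was 2873 ± 74.6 CPM at day 15 (SD, n = 3) and 1044 ± 46.0 at week 70 (SD, n = 2). Age and the making of the libraries cannot be told apart. Without week 70 replicate 2, the library that looked male, 45 of the 46 members had the same call, and Snrpf was called lower. Brain cell types moved with age as well: summed markers of oligodendrocytes ranged from 68.5 to 72.6 CPM in KO at day 15 and from 12500 to 12600 at week 70, those of astrocytes from 132 to 148 and from 5562 to 5892, and those of cycling progenitors from 467 to 477 and from 126.2 to 126.5. All 5 oligodendrocyte and all 5 astrocyte markers were higher, and 5 of 6 progenitor markers lower and 1 higher. Of 6 neuron markers 3 were higher and 3 lower. Of all tested genes 37.6% were called higher and 44.4% lower. The part of cell types in these results was not tested.

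Srsf7 fell most among the SR proteins. It was at 84.3 and 86.2 CPM at week 70, against 369 to 394 in KO at day 15, 4.77-fold lower in the age fit (edgeR SE 0.0923 on the log2 scale, adjusted p 4.36e-09); fits of the 2 comparisons were scaled apart from the CPM, so folds differ a little from ratios of CPM. Srsf6 (-2.13), Srsf10 (-1.94), Srsf1 (-1.87), Srsf11 (-1.78) and Srsf12 (-1.29) followed, and Srsf9 was at -0.13 (edgeR SE 0.116, adjusted p 0.324). With the length and GC offset 9 were lower, 1 (Srsf9, 0.43) higher and Srsf5 was not called (-0.05). The offset from protein-coding genes gave 11 lower.

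In the U1 particle, Prpf39 was at 22.7 and 26.6 CPM at week 70, against 155 to 182 in KO at day 15, 7.21-fold lower (edgeR SE 0.122 on the log2 scale, adjusted p 5.97e-09). This was the largest fall among the protein-coding members. Snrpc was at 48.3 and 40.4 CPM at week 70 and 16.7, 18 and 14.9 at day 15, a difference of 1.32 on the log2 scale (edgeR SE 0.123, adjusted p 2.76e-06). The ages did not overlap for either gene. Prpf40b (-1.10) fell and Snrpa rose (0.53).

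Several of the U2 and U5 proteins that were low in KO at day 15 were higher at week 70. Sf3b4, which helps to fix U2 on the intron, was at 56.4 and 59.4 CPM, against 11.1, 11.7 and 9.56 in KO at day 15, a difference of 2.32 on the log2 scale (edgeR SE 0.114, adjusted p 1.63e-08). Sf3b2 (1.10), Sf3a2 (1.10), Sf3b5 (0.63) and Sf3a1 (0.27) rose as well, while Sf3b1 fell from 526, 536 and 591 to 173 and 204 CPM (log2 fold change -1.65, edgeR SE 0.11, adjusted p 1.86e-07). Snrpb2 (-1.54), Sf3b6 (-1.09), Snrpa1 (-0.88) and Sf3a3 (-0.53) fell, and Sf3b3 was at -0.08 (edgeR SE 0.101, adjusted p 0.488). With the length and GC offset Sf3b4 (1.83) and Sf3b2 (0.49) were still higher, whereas Sf3a2 (0.02), Sf3a1 (-0.01) and Sf3b6 (-0.09) were not called.

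Prpf8 was at 187 and 232 CPM at week 70, above all KO day 15 libraries and below all WT libraries, a log2 fold change of 0.82 with age (edgeR SE 0.103, adjusted p 3.02e-05). Prpf6 rose (0.45), and Prpf4 (-0.47) and Prpf31 (-0.31) fell. Prpf3, a U4/U6 protein, was at 17.7 and 16.6 CPM at week 70 and 36.6, 31.3 and 32.4 at day 15, a difference of -1.06 on the log2 scale (edgeR SE 0.118, adjusted p 1.10e-05). Of the other Prpf factors, Prpf19 rose to 244 and 241 CPM, 2.59-fold above KO day 15 and above WT too (edgeR SE 0.092 on the log2 scale, adjusted p 1.86e-07). Prpf4b fell to 72.5 and 76.9 CPM from 292, 300.1 and 304 (log2 fold change -2.101, edgeR SE 0.0905, adjusted p 6.25e-09), and Prpf38a (-1.65), Prpf38b (-1.55) and Prpf18 (-0.51) fell too. Prpf6 (0.04) and Prpf18 (-0.14) were not called with the length and GC offset.

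Of the 8 Sm genes, 4 were higher and 2 lower at week 70. Their summed normalised level went from 610 ± 16.03 CPM (SD, n = 3) to 910.1 ± 43.8 (SD, n = 2), most of this rise coming from Snrpn. As a percent of all counts, without TMM factors, the sum was 0.07359, 0.07109 and 0.07055 in KO at day 15. At week 70 it was 0.066 and 0.07214, so the ages overlapped and the rise was seen only after scaling. With the counts of processed pseudogenes of the Sm genes added, 2 of the 8 were higher and 6 lower, and Snrpg was at -2.11. As deposited, Snrpg, for SmG, was at 24.1 and 21.1 CPM, against 9.57, 7.17 and 7.24 at day 15, a difference of 1.40 on the log2 scale (edgeR SE 0.167, adjusted p 1.91e-05). Snrpd1, for SmD1, was at 56.3 and 52.8 against 77.3, 76.4 and 78.8, a difference of -0.61 on the log2 scale (edgeR SE 0.0848, adjusted p 6.70e-05). Snrpn (0.94), Snrpb (0.62) and Snrpd2 (0.50) rose, Snrpd3 (-0.45) fell, and Snrpe (-0.14, edgeR adjusted p 0.26) and Snrpf (-0.62, edgeR adjusted p 0.0761) were not called. The 2 week 70 libraries of Snrpf stood apart, at 5.47 and 12.96 CPM; without the second it was called lower, and 65.9% of its exonic bases overlap Ccdc38 on the opposite strand.

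The age values of the Sm genes depended on how length and GC were handled. Their median was 0.18 as fitted (-0.072 with upper-quartile scaling), 1.43 with the length and GC offset from all genes and 0.13 with that from protein-coding genes. Snrpe was at -0.14, 2.52 and 0.72 in that order, and Snrpd1 at -0.61, 1.48 and -0.07. Over all members the first offset gave 40 calls, 15 higher and 25 lower, where 78.9% of 19896 genes were called (39.6% higher and 39.3% lower); 35 members had the same call as without it and Snrpd1 the opposite one. The other offset gave 39 calls, 9 higher and 30 lower, where 81.2% were called. Spearman's rho with GC over 45 members was 0.71 as fitted (0.28 over 19896 genes) and 0.30 with the first offset. Under 48% GC, 4 of 28 members were higher and 22 lower with age (14.3% and 78.6%). At 48% or more, 10 of 17 were higher and 5 lower (58.8% and 29.4%). Among all tested protein-coding genes 35.1% were higher and 46.3% lower under 48% GC. At 48% or more 54.3% were higher and 26.4% lower, close to the members' shares.

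Taking the 3 groups at once, 18 members were called higher in KO at day 15 and then lower with age, and 9 were called lower and then higher. Of all tested genes, 30.1% were called higher and 32.5% lower at day 15, and 37.6% higher and 44.4% lower with age. Shares of all genes with both calls, or with the orders below, are not given here, so these counts only describe the members. With the length and GC offset in both fits, 8 of the 18 and 6 of the 9 had both calls. With the offset from protein-coding genes, 9 of the 18 and 4 of the 9 did. The 9 were Prpf6, Prpf8, Prpf19, Sf3a1, Sf3a2, Sf3b2, Sf3b4, Snrpa and Snrpb, of which Prpf6, Sf3a1 and Sf3a2 lost a call with the first offset. With that from protein-coding genes, Snrpa (0.06) and Snrpb (0.16) lost their call with age as well, and Sf3a1 was called lower with age (-0.21). Since the KO day 15 libraries enter both comparisons, a high or low value there favours opposite calls. By CPM without overlap, 15 members had the order week 70, WT, KO day 15 from low to high, among them Prpf39, Snrpb2 and the 7 SR proteins that rose at day 15. In 7 the order was KO day 15, week 70, WT, as in Prpf8, Sf3a2 and Snrpb. Sf3b5, Snrpd2, Snrpg and Snrpn rose from WT to KO day 15 to week 70. Prpf31, Prpf4, Prpf40b, Srsf1, Srsf2 and Srsf4 ran the other way, highest in WT and lowest at week 70. Neighbours in the order overlapped in 9 members, as KO day 15 and week 70 did for Sf3b3, and for Snrpf no group stood clear of its neighbour.

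Snrpb and Snrpn encode the alternative forms of the same ring protein, and moved apart in KO at day 15. Windows from the middle of each coding sequence (chromosomes 2 and 7, coding bases 286 to 405 and 301 to 420), with G and C in capitals, show how alike the genes are.
Snrpb: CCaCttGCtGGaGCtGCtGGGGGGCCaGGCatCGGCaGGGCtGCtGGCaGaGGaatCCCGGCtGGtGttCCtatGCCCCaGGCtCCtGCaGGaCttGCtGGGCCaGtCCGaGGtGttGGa
Snrpn: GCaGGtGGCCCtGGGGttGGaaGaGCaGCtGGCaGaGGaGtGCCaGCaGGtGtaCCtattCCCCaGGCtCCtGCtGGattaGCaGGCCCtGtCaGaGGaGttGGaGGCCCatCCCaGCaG
Aligned over 693 bases the coding sequences are 80.5% identical, and the longest identical run is 32 bases. Snrpb was at 112, 108 and 104 CPM in WT, 70.5, 64.9 and 50.9 in KO at day 15 and 101.9 and 102.6 at week 70. Snrpn was at 179, 175 and 195, at 247, 241 and 271, and at 489 and 554. For Snrpb the log2 fold change was -0.76 between genotypes (edgeR SE 0.0972, adjusted p 6.00e-05) and 0.62 with age (edgeR SE 0.121, adjusted p 0.000776). For Snrpn it was 0.51 (edgeR SE 0.0697, adjusted p 0.0001) and 0.94 (edgeR SE 0.0965, adjusted p 5.78e-06). Snrpn thus gained on Snrpb in KO at day 15, when Snrpb was low, and kept its lead at week 70, when Snrpb was near its WT level.

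**Figure D4:**
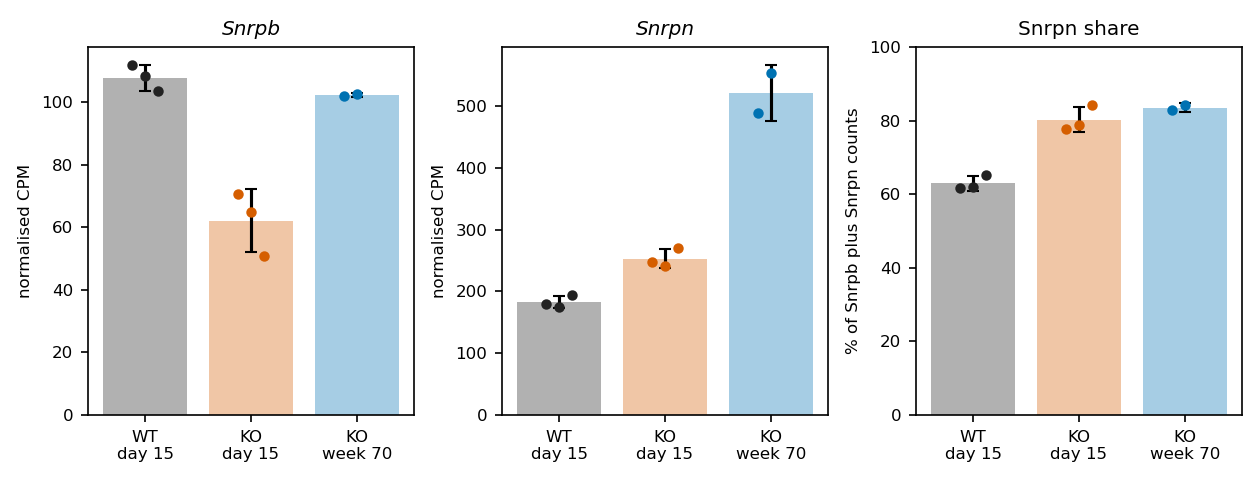
Normalised CPM of Snrpb (left) and Snrpn (middle), and Snrpn as a percent of the counts of both genes (right), by group. Points are libraries, bars are means and error bars are SD (n = 3, 3 and 2); the share is 61.6 to 65.3% in WT, 77.8 to 84.2% in KO at day 15 and 82.8 to 84.4% at week 70.

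The share of Snrpn in the counts of the pair was 61.6, 61.8 and 65.3% in WT, 77.8, 78.8 and 84.2% in KO at day 15, and 82.8 and 84.4% at week 70. KO and WT did not overlap. The difference at day 15 was 17.3 percentage points, with a two-sided exact permutation p of 0.1, the smallest that 3 against 3 libraries allow. KO day 15 and week 70 overlapped, with a difference of 3.31 points (exact permutation p 0.4). With the length and GC offset, Snrpb at day 15 was at -0.83 and still called, and Snrpn at 0.13 was not. Gm38393 covers 27.3% of the exonic bases of Snrpn on the same strand, so reads could be split between them; it had 867 to 914 counts in WT, 1289 to 1678 in KO at day 15 and 238 and 245 at week 70.

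Processed pseudogenes held many of the reads that resemble these genes in the fetal libraries and few at week 70. Together 42 such rows of members had 7978 to 8224 counts in WT, 8251 to 9383 in KO at day 15 and 496 and 498 at week 70. For Snrpg they held 88.6% of the reads on gene and pseudogenes in WT, 91.9% in KO at day 15 and 7.69% at week 70. The same shares were 50.03, 52.6 and 0.0395% for Snrpd2, 65.1, 45.0 and 3.21% for Snrpf, 56.4, 49.6 and 0.174% for Sf3b4, and 66.4, 60.4 and 19.8% for Snrpc. For Snrpe they were 65.5, 60.8 and 7.22%, nearly all on Snrpert. SR proteins had lower shares, such as 34.9, 33.7 and 2.04% for Srsf3.

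Snrpert itself was at 15.9, 23.4 and 18.2 CPM in WT, 39.9, 47.6 and 29.9 in KO at day 15 and 2.18 and 1.65 at week 70. Its log2 fold change was 1.07 at day 15 (edgeR SE 0.176, adjusted p 0.000359) and -4.45 with age (edgeR SE 0.253, adjusted p 5.07e-08). It was thus the member that fell most, and 55.7% of its 50-base words occur in other genes. The left-out row Srsf3-ps was alike, with 309 to 429 counts in WT, 454 to 492 in KO at day 15 and 5 and 2 at week 70.

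Adding pseudogene counts to their parents, done after seeing the data, left day 15 near as it was and turned several Sm genes with age. At day 15 it gave 38 calls in 45 genes, 22 higher and 16 lower, where 62.7% of all genes were called, and Snrpf and Snrpc lost their calls. With age it gave 43 calls, 12 higher and 31 lower, where 81.9% were called. Snrpg turned from 1.40 to -2.11 and Snrpd2 from 0.50 to -0.58, and Snrpe (-1.38) and Snrpf (-1.43) were called lower. Sf3b4 kept its rise at 1.34 and Snrpc at 0.30, and Srsf3 went from -1.11 to -1.67. The Sm median with age was -0.71 on these sums. The direction of Snrpd2 and Snrpg with age, and the calls on Snrpe and Snrpf, depend on where such reads are counted. How reads that fit more than 1 place were counted is not given in the sources used here.

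**Figure D5:**
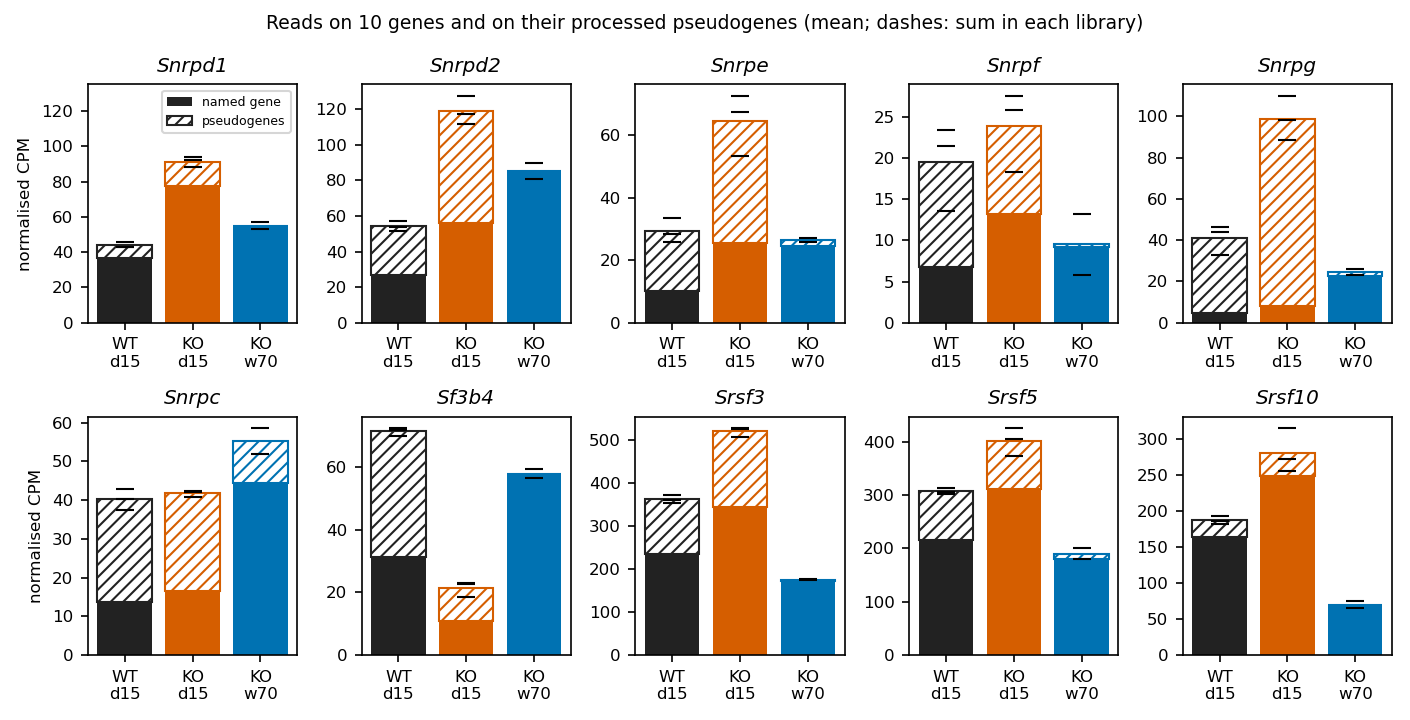
Mean normalised CPM by group of 10 members (solid) and of their processed pseudogenes (hatched, stacked on top), with dashes for the sum in each library; WT and KO at day 15 (d15) have 3 libraries and KO at week 70 (w70) has 2. Hatched parts make up most of the fetal bars of Snrpe, Snrpg and Snrpc and are thin or absent at week 70, except in Snrpc.

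Other splicing genes were read from a list of 95, chosen with earlier results known. At day 15, 38 of 94 tested were higher and 28 lower in KO, 70.2% in all, where 62.6% of all tested genes were called (30.1% higher and 32.5% lower). Their median log2 fold change was 0.05, beside 0.03 for all tested genes. The helicase Snrnp200, which unwinds U4 from U6 and binds Prpf8, was at 256, 257 and 245 CPM in WT and 76.8, 74.1 and 68.97 in KO (log2 fold change -1.75, edgeR SE 0.0609, adjusted p 1.60e-08). Eftud2, the U5 GTPase, was also lower (-1.03), as was the tri-snRNP helicase Ddx23 (-0.86), whereas the small U5 protein Txnl4a (0.44) and the small SF3b protein Phf5a (0.49) were higher. Among the helicases that act late, Dhx38 (-1.53) and Dhx8 (-1.37) fell, and the largest rises were those of Lsm5 (1.49), Gemin6 (1.23) and Lsm3 (1.22). Of 9 proteins of the minor spliceosome, 7 were higher and 1 lower (median 0.65). With the length and GC offset Snrnp200 was at -1.10, Dhx38 at -0.75, Dhx8 at -0.87, Lsm5 at 0.004, Gemin6 at 0.60, Lsm3 at 1.01, Phf5a at 0.045 and the minor spliceosome median at 0.38.

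With age 25 of the 94 were higher and 49 lower, 78.7% in all, where 82.0% of all tested genes were called (37.6% higher and 44.4% lower). Their median was -0.29, beside -0.19 for all tested genes. Most kinases of SR proteins and SR-like factors fell along with the SR proteins: 12 of 15 were lower and 3 higher, with a median of -1.10 (-1.34 with the offset). The 3 were Srpk2 (0.53) and Srpk3 (2.15), which are kinases of SR proteins, and Rnps1 (0.47). Clk1, a kinase of SR proteins, was at 245, 261 and 295 CPM in KO at day 15 and 35.9 and 45.4 at week 70 (log2 fold change -2.82, edgeR SE 0.135, adjusted p 1.36e-08), and Tra2a (-2.78) and Clk4 (-2.55) were close to it. Tia1, which helps U1 to bind weak splice sites (-3.90), and Rnpc3 of the minor spliceosome (-3.06) fell most as fitted. Srpk3 (2.15), Lsm7 (1.52) and Cdc5l (1.38) showed the largest rises, Srpk3 from at most 1.09 to 4.02 and 4.14 CPM. The length and GC offset changed these ranks. With it Tia1 was at -3.19, Rnpc3 at -1.45, Clk1 at -1.88, Srpk3 at 1.61, Lsm7 at 1.86 and Cdc5l at 1.455. Acin1 (-2.77) and Snrnp70 (-2.73) then followed Tia1, and Lsm5 rose most (3.11, from -0.25 as fitted). At day 15 Clk1 (1.04), Tra2a (0.78) and Clk4 (0.85) had been called higher in KO.

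Cell type markers moved with genotype too. In KO at day 15 all 6 markers of cycling progenitors and all 5 of endothelium were called lower and all 5 erythroid markers higher. Of all tested genes 30.1% were called higher and 32.5% lower. Other lists were mixed or partly called: 2 of 6 neuron markers were higher and 3 lower, and 2 of 4 oligodendrocyte markers higher and 2 lower. Of 5 astrocyte and of 5 microglia markers 1 was higher and 3 lower, and of 5 connective tissue markers 0 and 3. Neither of 2 skeletal muscle markers was called. Summed progenitor markers were 969 to 1127 CPM in WT and 467 to 477 in KO, and erythroid markers 953 to 1233 and 3558 to 4369. Their part in the changes of splicing genes was not tested. Leaving out WT replicate 1, the library rich in connective tissue markers, gave 37 called members, 23 higher and 14 lower. The losses were Srsf2, Snrpc, Sf3b1 and Prpf31, and 58.15% of all tested genes were called in that fit.

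Levels per kilobase of exon, with all annotated exons of a gene merged, differed widely inside each particle. Merged exons can be much longer than the longest transcript, as in Sf3b1 (11370 against 6195 bases) and Srsf2 (2958 against 1899). Ranks may thus change with the length chosen, which was not tested. In WT the Sm genes ran from 2.98 CPM per kilobase in Snrpg to 84.8 in Snrpn, and U2 genes from 8.04 in Sf3b5 to 47.3 in Sf3b2. Reads on pseudogene rows are left out of these levels. In WT such rows held 88.6% of the reads on gene and pseudogenes for Snrpg and 0.24% for Snrpn. They held 65.5% for Snrpe, 65.1% for Snrpf and 50.03% for Snrpd2. The part of such reads in the spread was not tested. Prpf8 led the tri-snRNP in all 3 groups, at 57.6, 14.9 and 28.1 CPM per kilobase in WT, KO day 15 and week 70. The top of the U2 genes passed from Sf3b2 in WT to Sf3b1 in KO at day 15 (48.5) and back to Sf3b2 at week 70 (40.8). Among SR proteins it was Srsf2 in WT (86.4), Srsf7 in KO at day 15 (107) and Srsf5 at week 70 (45.1).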

How the data were processed

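Polyadenylated RNA of 8 whole-brain libraries was sequenced. The authors deposited raw counts per gene; the submitters' processing notes name FastQC, cutadapt, Trimmomatic, HISAT2, featureCounts and edgeR, and both GRCm38 and GRCm39, without versions or roles, so no gene coordinates are given. Strand and treatment of multi-mapping reads are not given in the sources used here. Labels call the fetal libraries biological replicates; for week 70 the p-values measure only the spread between these samples.

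edgeR 4.0.16 (R 4.3.3; TMM, filterByExpr, quasi-likelihood F-test, Benjamini-Hochberg over all tested genes, threshold 0.05) was fitted to the 6 day 15 libraries and, apart, to the 5 KO libraries, with no block. All 46 members passed the filter in both fits. CPM levels came from 1 TMM scaling of all 8 libraries. The offset was smoothed per library on length and GC with mgcv 1.9.3. Lengths, GC, overlaps, coding sequences and pseudogene parents came from GENCODE M21 (97.3% of gene IDs matched); a pseudogene was given a parent where minimap2 2.31 aligned at least 50% of it at 85% identity or more, with 100 or more coding bases. Alternatives were other scalings, filters, DESeq2 1.42.0, all 8 libraries in 1 fit, a replicate block, the offset, each library left out and, added after seeing the data, the protein-coding offset and the pseudogene sums. The fits were tested on simulated data. 1 member enters every count, median and sum but is not reported by name or shown in the figures. The members, the subcomplexes and the lists were chosen with earlier results of these data known. Genes named with full statistics were Snrpb, Snrpn and, in each subcomplex and comparison, the called members with the largest rise and fall. Members that were not called are all named. Sf3b3, Srsf9, the genes of opposite calls and those that lost a call with the length and GC offset from all genes are given by value. Of the other splicing genes, the rule names the 3 largest rises and falls in each comparison. Eftud2, Ddx23, Txnl4a, Phf5a, Tra2a, Clk4, Srpk2, Rnps1, Acin1 and Snrnp70 were chosen after their values were seen. Nothing in the labels says that replicate numbers pair the libraries. Same-numbered WT and KO fetal libraries had deviations from their group means that correlated at -0.16, -0.19 and -0.18. Those with different numbers correlated at 0.071 to 0.099. Deviations from a group mean are tied to each other, so these values cannot settle whether libraries are paired.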

Additional observations from a re-analysis of the deposited data

How the results depend on the processing

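Counts of called members stayed within 1.5 times under every alternative run: 28 to 41 at day 15 and 39 to 45 with age, and so did counts of other splicing genes; the Snrpn share kept its sign. Over the same alternatives 35.99 to 65.5% of all tested genes were called at day 15 and 57.04 to 82.28% with age. The replicate block gave 37 and 43 calls of members, where 58.4% and 74.4% of all tested genes were called. Upper-quartile scaling moved the median of all genes at day 15 from 0.03 to 0.20 and with age from -0.19 to -0.44. It gave 27 members higher and 12 lower at day 15, where 65.5% of all tested genes were called. With age it gave 13 and 32, where 82.28% were called. Leaving out 1 library gave 37 to 39 calls at day 15, where 54.95 to 58.15% of all tested genes were called. With age, leaving out 1 KO day 15 library gave 42 calls, where 78.41 to 78.79% of all tested genes were called. Snrpn share differences with 1 library left out were 15.37 to 18.55 points at day 15. With age they were 2.097 (without KO day 15 replicate 1) to 5.275 (without KO day 15 replicate 3). No permutation p was possible for the share with 1 week 70 library, the pseudogene sums give no value for Snrpert, and a share that adds Snurf to Snrpn was not run because no row of that name was used here. Calls on Srsf6 and Srsf11 were lost with no filter, on Prpf31 with DESeq2, and on Snrpc and Sf3b1 with no filter, with all 8 libraries and with the block. The cause of the sign changes below was not tested.

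At day 15, with upper-quartile scaling the U2 median was 0.13, Prpf3 0.15, Sf3a3 0.13, Prpf31 0.013 and Srsf1 0.12. With no filter Prpf38b was -0.061 and Snrpa1 -0.072, and with all 8 libraries -0.01 and -0.02. With the length and GC offset Snrpert, alone in its class, was -0.16, Prpf38b -0.51, Snrpa1 -0.455, Snrpf -0.11, Prpf31 0.084, Srsf6 -0.065 and Prpf40b 0.52, the last called higher where it had been called lower; with the replicate block as well they were -0.18, -0.515, -0.455, -0.099, 0.085, -0.065 and 0.517. With the protein-coding offset Snrpert was -0.69, Prpf3 0.028, Prpf38b -0.47, Snrpa1 -0.463, Snrpd1 -0.066, Snrpe -0.02, Snrpf -0.32, Srsf4 0.003, Srsf6 -0.006 and, called higher against the fit without an offset, Prpf31 0.173 and Prpf40b 0.589. Leaving out 1 library, the U2 median and Sf3a3, its middle gene, ran from -0.094 to 0.028, Prpf3 from -0.102 to 0.014, Prpf38b from -0.003 to 0.044 and Snrpa1 from -0.026 to 0.045.

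With age, upper-quartile scaling gave a Sm median of -0.072, and all 8 libraries a U2 median and Sf3b3 of 0.021. The length and GC offset gave 1.48 for Snrpd1, 2.52 for Snrpe, 1.66 for Snrpf, 0.43 for Srsf9 and -0.011 for Sf3a1; the first 4 were 1.44, 2.419, 1.409 and 0.363 with the replicate block. The protein-coding offset gave 0.72 for Snrpe, 0.092 for Snrpf, -0.12 for Prpf6 and, called lower against the fit without an offset, -0.214 for Sf3a1. Pseudogene sums gave a Sm median of -0.71 Snrpg at -2.11 and Snrpd2 at -0.579. Leaving out 1 library, the U2 median and Sf3b3 ran from -0.198 to 0.048.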
